A study of Mus musculus with 4 samples.

Results

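Vasopressin neurons of the mouse hypothalamus were picked from single-nucleus RNA counts by their own hormone transcript. A nucleus was taken as a vasopressin-dominant Avp nucleus when it had at least 500 genes, at most 5% of its unique molecular identifiers (UMIs, one per captured transcript) from mitochondrially encoded genes, at least 12 UMIs of Avp, Avp at 3000 or more CPM (counts per 1000000 UMIs of the nucleus), more Avp than Oxt, and at least 3 UMIs of Snhg11, a long noncoding RNA of neurons. The rule found 353 nuclei among 56797 barcodes, of which 54422 passed the filter on genes and mitochondrial share. All animals were wild-type C57BL/6J mice, which the sample titles call SPF (specific-pathogen-free). The titles also all hold the word Baseline, without saying what it marks. Groups of mice received imidazole propionate (ImP, a bacterial metabolite of histidine) at 350 µg daily or its vehicle, sterile distilled water with 1% DMSO. An osmotic pump delivered either into the peritoneal cavity for 2 weeks, and all mice were then put under isoflurane and perfused with cold saline, after which the hypothalamus was cut out and frozen. The labels give neither the age nor the sex of the mice, and do not say whether a library came from 1 mouse or from several. ImP 3 and ImP 4 are the libraries of the treated mice, and vehicle 1 and vehicle 2 those of the control mice. Per-library values are listed in the order ImP 3, ImP 4, vehicle 1 and vehicle 2.

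Vasopressin is made by large neurosecretory neurons of the paraventricular and supraoptic nuclei, whose axons release it from the posterior pituitary to make the kidney retain water, by smaller paraventricular neurons that act with corticotropin-releasing hormone on the pituitary, and by neurons of the suprachiasmatic clock. Its precursor is folded in the endoplasmic reticulum, packed into dense-core granules and cut into vasopressin, neurophysin II and copeptin. In mice the transcription factors Sim1, Arnt2, Otp and Pou3f2 are needed for the neurosecretory neurons to form. The gene for oxytocin lies next to Avp and is used by neighbouring neurons of the same nuclei.

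The sequences just before the transcription starts of Avp and Oxt show how the gene that chose these nuclei differs from that of their closest relatives. RefSeq's table for the build GRCm38.p6 was used, which is not the build of the counts (GRCm39). Capitals mark 3 motifs searched on both strands. CACGTG is the E-box bound by the clock proteins CLOCK and BMAL1, CATAAA is a TATA-like sequence, and TGACC is the core of nuclear receptor sites. When that core lies on the opposite strand it is printed as GGTCA. The 250 bases of Avp lie at chr2:130582589-130582838 on the minus strand, and those of Oxt at chr2:130575919-130576168 on the plus strand.
Avp: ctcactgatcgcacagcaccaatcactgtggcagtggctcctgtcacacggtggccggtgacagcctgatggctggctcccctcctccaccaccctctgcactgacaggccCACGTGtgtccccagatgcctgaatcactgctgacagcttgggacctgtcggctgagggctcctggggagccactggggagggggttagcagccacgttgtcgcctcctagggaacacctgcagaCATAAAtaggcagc
Oxt: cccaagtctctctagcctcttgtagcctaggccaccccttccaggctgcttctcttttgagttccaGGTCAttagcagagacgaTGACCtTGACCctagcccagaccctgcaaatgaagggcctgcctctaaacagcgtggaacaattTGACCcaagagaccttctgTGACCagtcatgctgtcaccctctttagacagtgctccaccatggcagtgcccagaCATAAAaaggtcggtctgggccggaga
The Avp stretch held 1 CACGTG, whose first base lies 139 bases before the start, 1 CATAAA, which begins 14 bases before it, and no TGACC. The Oxt stretch held 1 CATAAA, which begins 27 bases before the start, 5 TGACC (4 on its own strand and 1 on the other) and no CACGTG. None of the matches overlapped. Of the 32851 mouse promoters in the table, searched over the same length, 6.02% held CACGTG, 10.8% held CATAAA and 35.2% held TGACC. A match is only a match of letters.

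The libraries held 49508252, 51945297, 48060194 and 49291659 UMIs over 33696 genes. Of the 353 Avp nuclei, 89, 118, 52 and 94 came from the libraries in their listed order. Their share of all nuclei with at least 3 Snhg11 UMIs past the same filter was 0.772% (exact 95% binomial interval 0.620 to 0.949) in ImP 3 and 0.946% (0.784 to 1.13) in ImP 4. It was 0.609% (0.455 to 0.798) in vehicle 1 and 0.903% (0.731 to 1.10) in vehicle 2. These intervals cover counting error only, and the ImP and vehicle libraries overlapped. The median depth of an Avp nucleus was 4162, 3739, 5521 and 4255 UMIs, against 3433, 3309, 4509 and 3773 UMIs in the other neurons, the 42595 nuclei with 3 or more Snhg11 UMIs that were not chosen. Between 39 and 76 barcodes were shared by a pair of libraries, and none of these was an Avp nucleus in both.

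The rule fixed the Avp level, so it is only described here. Avp nuclei held between 12 and 139 Avp UMIs each, with medians of 32, 29, 47 and 36.5. Per nucleus the median was 7472, 7482, 7025 and 8516 CPM, and the highest nucleus reached 61041, 43552, 24310 and 34666 CPM. Summed over all Avp nuclei of a library the level was 8071 and 8374 CPM in ImP, against 7555 and 9386 CPM in vehicle, so the groups overlapped. In the other neurons the same sum was 258, 390, 138 and 218 CPM.

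Avp RNA was also found where it is not known to be made. Oligodendrocyte-gated nuclei (10 or more UMIs of Mog, Mag, Mobp, St18, Opalin and Ermn together and no Snhg11, between 62 and 131 per library) held Avp at 410, 526, 252 and 499 CPM, which is more than in the other neurons of every library. The Avp nuclei held 17.9, 15.3, 23.8 and 23.9% of all Avp UMIs of their libraries. Summed Oxt was at 224, 246, 200 and 210 CPM in Avp nuclei, below the 441, 554, 224 and 278 CPM of oligodendrocyte-gated nuclei. Other neurons held 252, 315, 118 and 181 CPM, so Avp nuclei were lower in both ImP libraries and higher in both vehicle libraries. The highest single Avp nucleus of each library held 7, 6, 16 and 9 Oxt UMIs. No Oxt UMI was seen in 150 of the 353 Avp nuclei.

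Some nuclei lay close to the limits of the rule. With 12 to 14 Avp UMIs, 24 nuclei were just inside, while 30 nuclei with 9 to 11 UMIs and the other thresholds met were just outside. Between 3000 and 4000 CPM lay 48 nuclei inside, and between 2000 and 3000 CPM lay 22 nuclei outside. Only 1 nucleus was left out for having no more Avp than Oxt. Without the Snhg11 limit the number was 355.

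**Figure D1:**
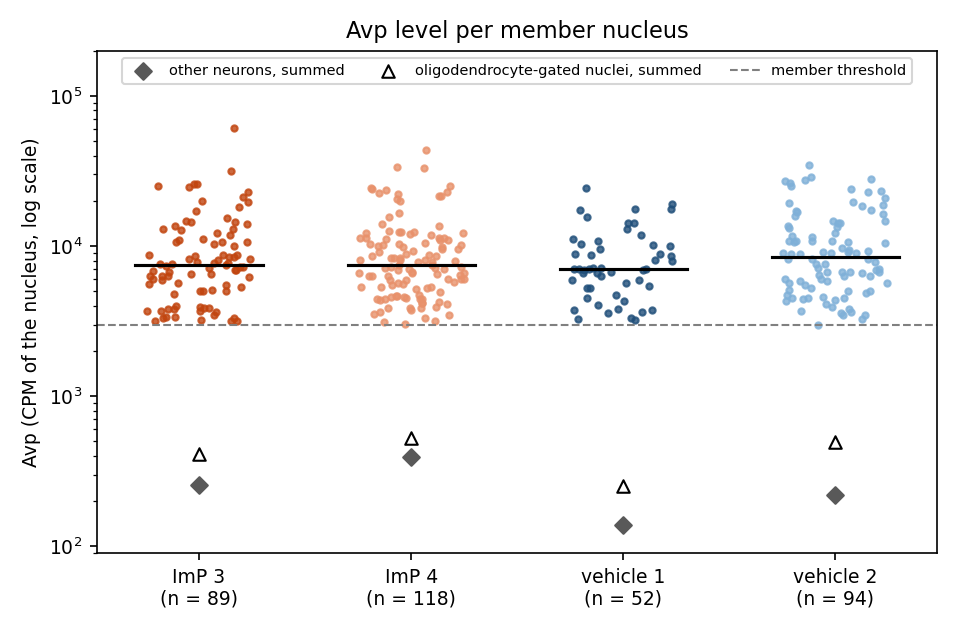
Avp level of each Avp nucleus (points, CPM of the nucleus, log scale) by library, with the median as a bar, the limit of 3000 CPM as a dashed line, and the summed level in other neurons (diamonds) and oligodendrocyte-gated nuclei (triangles). Medians lie between 7025 and 8516 CPM, and the background symbols between 138 and 526 CPM.

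The sums of the oligodendrocyte, astrocyte and pituitary lists were lower in Avp nuclei than in other neurons of each library, and those of other lists were not in all. Summed, the 6 oligodendrocyte markers were at 95.8, 173, 31.2 and 51.2 CPM in Avp nuclei, against 222, 229, 149 and 191 CPM in other neurons, and the 6 astrocyte markers at 157, 151, 134 and 147 CPM, against 276, 294, 188 and 223 CPM. The 4 microglia markers were at 88.4, 119.9, 84.3 and 112 CPM in Avp nuclei, against 118, 113, 114 and 133 CPM, and so were higher in ImP 4. The 3 endothelial markers were at 0, 5.90, 9.37 and 2.33 CPM, against 5.71, 8.34, 4.96 and 6.37 CPM, and so were higher in vehicle 1. The 3 markers of oligodendrocyte precursors (Pdgfra, Cspg4 and Vcan) were at 63.9, 41.3, 34.4 and 46.6 CPM, against 35.7, 41.7, 32.2 and 37.1 CPM. Of these Vcan, a proteoglycan of the extracellular matrix, passed as higher (log2 fold change 0.73 ± 0.22 by the test described next), and not without ImP 3 or vehicle 2. In nuclei with 24 or more Avp UMIs 0 of the 3 precursor markers passed as higher and 1 as lower. Pituitary hormone transcripts (Gh, Prl, Pomc, Cga and Pou1f1) stood at 56.5, 1810, 12.5 and 30.3 CPM in Avp nuclei and at 90.7, 2684, 61.6 and 34.8 CPM in other neurons, so ImP 4 stands apart in both. At least 5 UMIs of that list were found in 92 Avp nuclei, all in ImP 4. Removing every nucleus with 5 or more UMIs of any 1 list of another cell type left 255 of the 353 Avp nuclei, of which 25 were in ImP 4. Of the 5 neuronal markers other than Snhg11, 5 were lower in Avp nuclei than in other neurons by the test described next (3 by DESeq2 or with another scaling), among them Syt1, the calcium sensor of synaptic vesicles, at 644, 647, 534 and 403 CPM against 1659, 1601, 1715 and 1738 CPM (log2 fold change -1.58 ± 0.09).

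What Avp nuclei share beyond the rule was asked against the other neurons of the same libraries. UMIs were summed per library and class and compared with edgeR's quasi-likelihood test, with library as a block, Benjamini-Hochberg adjustment and a threshold of 0.05. Avp nuclei carried far more RNA of paraventricular transcription factors, of many immediate early genes, of the potassium channel partner Kcnip4 and of the convertase Pcsk1. They carried less of GABA synthesis genes, of many ion channels and of some clock genes. Of 18531 genes tested, 1061 were higher (5.73%) and 1591 lower (8.59%) in Avp nuclei. Without the rule's own genes the higher count was 1059. DESeq2 called 907 higher and 898 lower, without ImP 4 there were 836 and 1320, and without mixed nuclei 903 and 1357. In the 119 nuclei with 10000 CPM or more of Avp there were 420 and 997, and several list counts below were lower there too, such as 3 and 8 receptors. The median over all genes tested was -0.10 on the log2 scale, and the counts of each gene list are to be read against these shares. Some genes stand in more than 1 list, such as Fos and Junb. Fold changes, also those given in parentheses after a gene, are log2 of Avp nuclei over other neurons ± standard error (n = 4 libraries). That error comes from a spread which the fit shares over genes and over the far deeper sums of other neurons. It therefore does not measure a gene's own spread between the 4 libraries, for which the values of each library are given.

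Of 17 transcription factors of the neurosecretory lineage, 8 rose and 2 fell in Avp nuclei, with a list median of 1.03. Sim1, without which these neurons fail to form in mice, stood at 622, 578, 631 and 631 CPM in Avp nuclei, against 56.8, 46.0, 48.7 and 57.9 CPM in other neurons (log2 fold change 3.58 ± 0.09). At least 1 Sim1 UMI was seen in 71, 91, 42 and 76 Avp nuclei, or 79.3% in all, while 0, 0, 0 and 2.41% of oligodendrocyte-gated nuclei had one at median depths of 1697 to 1861 UMIs. All 4 Sim1 values of Avp nuclei lay far above all others, and they lay close together.

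Pou3f2, a POU factor needed for Avp and Oxt neurons in mice, was at 140.0, 159, 109 and 169.9 CPM, against 13.4, 12.6, 10.3 and 11.8 CPM (log2 fold change 3.61 ± 0.16). Otp, a homeobox factor of the same lineage, was at 44.2, 49.1, 25 and 86.1 CPM, against 7.44, 8.53, 7.27 and 8.47 CPM (log2 fold change 2.72 ± 0.24). Vehicle 1 had the lowest Otp and vehicle 2 the highest, both above every value in other neurons. Uncx (log2 fold change 3.14 ± 0.20), Fezf2 (3.63 ± 0.58, on 3 to 7 UMIs per library) and Arnt2, the partner of Sim1 (1.03 ± 0.10), rose as well. Ebf3, a helix-loop-helix factor of neuronal differentiation, was at 251, 316, 306 and 382 CPM, against 27.4, 17.7, 24.7 and 18.7 CPM (log2 fold change 3.88 ± 0.11). Pou3f3 and Onecut2 were the pair that fell.

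Among genes of no fixed list, named for the size of their change, Pla2r1, a receptor for secreted phospholipase A2, had the largest rise. It was at 81.1, 74.7, 62.5 and 67.5 CPM in Avp nuclei and at 0.662, 0.676, 0.993 and 0.227 CPM in other neurons (log2 fold change 6.87 ± 0.30), and none of the oligodendrocyte-gated nuclei had a UMI of it. Angpt1, a secreted ligand of the vascular receptor Tie2, was at 604, 519, 631 and 512 CPM, against 45.2, 47.9, 44.0 and 41.7 CPM. Its log2 fold change was 3.67 ± 0.09. Cdh9, a cadherin of cell contacts, was at 639, 672, 765 and 715 CPM, against 66.7, 55.2, 67.9 and 65.0 CPM (log2 fold change 3.48 ± 0.09). In each of these genes the lowest Avp value was above the highest other value. The dynein heavy chain Dnah8 (4.36 ± 0.32) and the adhesion protein Tns1 (3.58 ± 0.22) completed the largest rises together with immediate early genes.

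Of 19 genes known to act on Avp transcription or its RNA, 7 rose and 4 fell (2 without ImP 3), with a median of 0.13. Caprin2, an RNA-binding protein that in the rat lengthens the tail of Avp RNA, was at 427, 460.0, 497 and 354 CPM in Avp nuclei, against 32, 24.0, 34.8 and 27.6 CPM in other neurons (log2 fold change 3.91 ± 0.09). Creb3l1, an activator of the Avp promoter in the rat, was sparse, with 4, 7, 3 and 2 UMIs in Avp nuclei, and passed (log2 fold change 1.90 ± 0.51, adjusted p 0.0025 by edgeR). That call was lost without ImP 4 (adjusted p 0.15), and over 13 alternatives the adjusted p ranged between 0.0017 and 0.17. Among those that fell, Nr3c1, the glucocorticoid receptor, was at 44.2, 51.1, 28.1 and 14 CPM, against 96.7, 100.2, 102 and 95.8 CPM (log2 fold change -1.46 ± 0.17). Creb1 did not pass (log2 fold change 0.26 ± 0.13).

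Of 31 genes of granules, prohormone processing and release, 6 rose and 9 fell, with a list median of -0.21. Median-ratio scaling gave 8 and 6, DESeq2 gave 5 and 4, and without vehicle 1 or vehicle 2 there were 5 falls. Pcsk1, the convertase that makes the first cut in the vasopressin precursor, was at 199, 352, 334 and 249 CPM in Avp nuclei, against 58.3, 52.9, 58.1 and 47.6 CPM in other neurons (log2 fold change 2.41 ± 0.10). Pcsk2, the other convertase, was at 371, 476, 518 and 421 CPM, against 428, 461, 446 and 409.9 CPM, and its log2 fold change was 0.04 ± 0.09 with overlapping libraries.

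Cadps2, a priming factor of dense-core granules, was at 737, 592, 946 and 668 CPM, against 268, 277, 254 and 257 CPM (log2 fold change 1.47 ± 0.09), and the granule membrane protein Ptprn rose by less (0.63 ± 0.09). Pam, which amidates the hormone's end, passed at 0.34 ± 0.09, but not without ImP 4, where its log2 fold change was 0.16. Rph3a, a vesicle protein bound by Rab3, fell, at 9.83, 29.5, 18.7 and 34.9 CPM, against 79.0, 82.0, 82.5 and 81.1 CPM (log2 fold change -1.74 ± 0.20), and so did the active-zone scaffold Rims1 (-0.62 ± 0.09). The granule cargo Scg2 also fell (-0.58 ± 0.10).

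Of 29 neuropeptide genes other than Avp and Oxt, 1 rose and 8 fell (4 by DESeq2 and in nuclei of 5000 or more UMIs). Pdyn, the precursor of dynorphins that neurosecretory vasopressin neurons are known to co-release, was at 27.0, 21.6, 18.7 and 23.3 CPM in Avp nuclei, against 4.79, 6.96, 4.69 and 4.87 CPM in other neurons (log2 fold change 2.10 ± 0.33). These are 11, 11, 6 and 10 UMIs, found in 10, 8, 5 and 10 nuclei. The lower peptides included Trh (-1.29 ± 0.26) and Penk (-1.02 ± 0.28), whose call was lost without ImP 4 (adjusted p 0.096).

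Of 14 transmitter genes, 1 rose and 7 fell, with a list median of -1.04. DESeq2 called 3 of the falls, 4 passed in nuclei of 5000 or more UMIs, and 5 without ImP 4 or vehicle 1. Th, which makes the dopamine precursor and which rodent vasopressin neurons are known to contain, was at 9.83, 25.6, 31.2 and 23.3 CPM, against 3.13, 4.39, 3.35 and 2.79 CPM (log2 fold change 2.71 ± 0.36). The Avp values of Th rest on 4, 13, 10 and 10 UMIs, found in 2, 12, 6 and 9 nuclei. Gad2, which makes GABA, was at 39.3, 39.3, 25 and 16.3 CPM in Avp nuclei, against 132, 144, 129 and 135 CPM in other neurons (log2 fold change -2.13 ± 0.17), and Gad1 (-1.54 ± 0.22) and the GABA vesicle transporter Slc32a1 (-0.92 ± 0.23) fell with it. Slc17a6, the vesicular glutamate transporter, was at 95.8, 82.6, 106 and 147 CPM, against 107, 104, 108 and 101.4 CPM (log2 fold change 0.05 ± 0.12), with overlapping values.

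**Figure D2:**
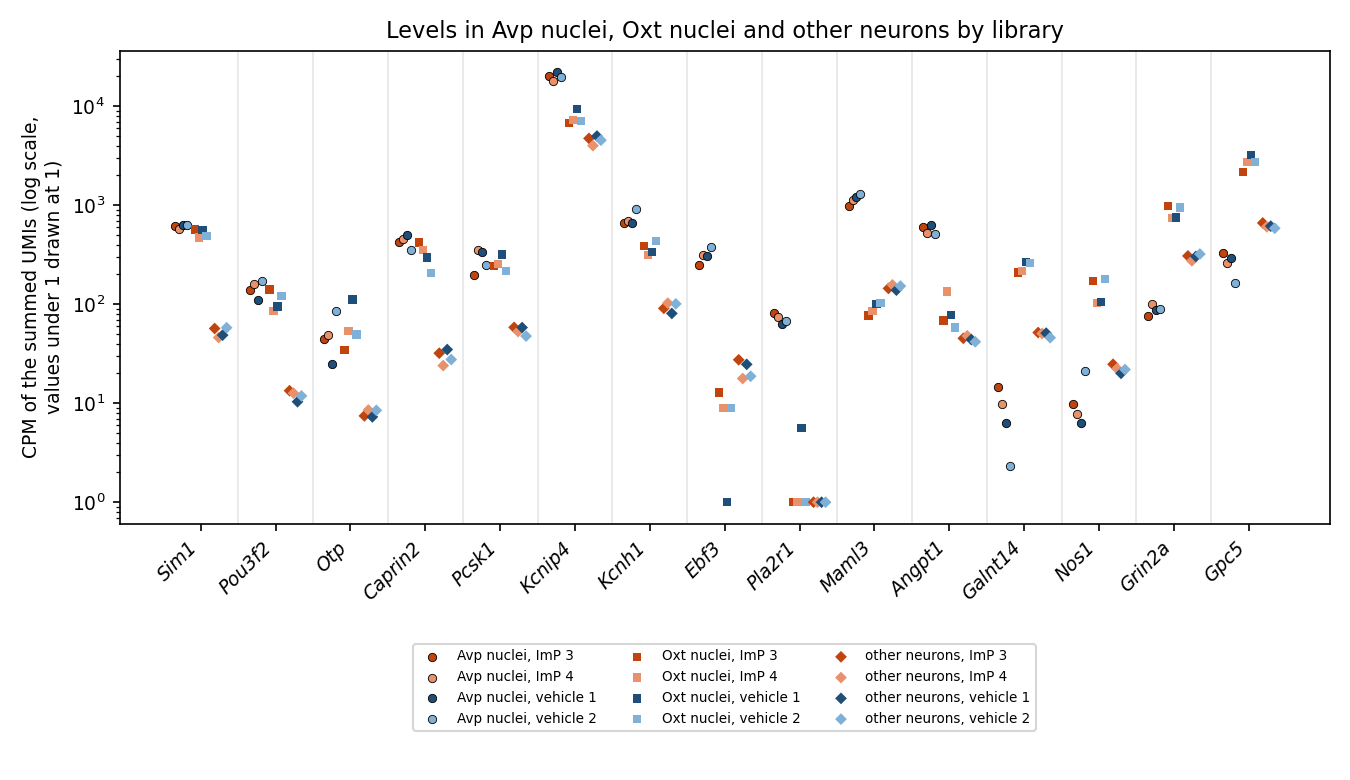
Levels of 15 genes in Avp nuclei (circles), Oxt nuclei (squares) and other neurons (diamonds) in each library, as CPM of the summed UMIs on a log scale, with values under 1 drawn at 1. Sim1, Pou3f2, Caprin2 and Pcsk1 are high in both hormone classes, while Ebf3, Pla2r1, Maml3 and Angpt1 are highest in the Avp circles and Galnt14, Nos1, Grin2a and Gpc5 are higher in the Oxt squares.

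Ion channels changed in both directions, with 10 of 55 higher and 21 lower. Kcnip4, a partner of A-type potassium channels, was at 20171, 17862, 22029.9 and 19533 CPM in Avp nuclei, against 4729.5, 3995, 4995 and 4534 CPM in other neurons (log2 fold change 2.14 ± 0.09). Kcnd3 (1.35 ± 0.09), a pore of these channels, rose too. Kcnh1, an ether-à-go-go potassium channel, was at 654, 698, 668 and 919.5 CPM, against 90.8, 103, 80.7 and 100.8 CPM (log2 fold change 2.98 ± 0.09). Kcnmb4, the neuronal beta subunit of calcium-activated BK channels, rose by 2.85 ± 0.16 on that scale. The cation channel Trpc5 was at 639, 706, 665 and 875 CPM in Avp nuclei, against 209.7, 232, 199 and 217 CPM in other neurons (log2 fold change 1.76 ± 0.09). None of these genes overlapped between the classes.

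The channels that fell included Kcnn2, a small-conductance calcium-activated channel (-1.84 ± 0.14), Kcnj3, an inward rectifier (-1.5 ± 0.11), and Cacna1g, a T-type calcium channel (-2.38 ± 0.27). Of 21 genes of osmosensing and chloride balance, 3 rose and 5 fell (3 by DESeq2 or without vehicle 2). Slc12a5, the chloride extruder KCC2, was at 90.9, 116, 71.8 and 109 CPM in Avp nuclei, against 219, 229, 227 and 230.5 CPM (log2 fold change -1.18 ± 0.12). Trpv2 passed at 0.61 ± 0.22 but held in only 4 of 13 alternatives, not without ImP 4, vehicle 1 or vehicle 2, and ImP 3 lay below the other neurons.

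Of 43 receptors, 6 rose and 14 fell in Avp nuclei. Adra1a, a noradrenaline receptor, was at 140.0, 126, 169 and 137 CPM, against 35.7, 37.4, 37.1 and 39.5 CPM in other neurons (log2 fold change 1.93 ± 0.13). Glp1r, the receptor of glucagon-like peptide, was at 17.2, 25.6, 15.6 and 25.6 CPM, against 1.87, 2.73, 1.82 and 1.72 CPM (log2 fold change 3.39 ± 0.40, on 7, 13, 5 and 11 UMIs). The histamine receptor Hrh2 (2.0 ± 0.27), the relaxin-3 receptor Rxfp3 (2.33 ± 0.78), the neurokinin receptor Tacr3 (1.5 ± 0.30) and Igf1r (0.71 ± 0.10) were the other risers.

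The receptors that fell included Prlr, the prolactin receptor, at 29.5, 23.6, 28.1 and 4.66 CPM, against 115.1, 119, 109 and 102 CPM (log2 fold change -2.39 ± 0.19), Htr2c for serotonin (-2.24 ± 0.12) and Oprm1 for opioids (-1.74 ± 0.18). Of 18 glucocorticoid-induced genes, 2 rose and 4 fell, among them Sgk1 (-1.53 ± 0.20) and Zbtb16 (-2.32 ± 0.29). Nr3c1 itself fell, as given above.

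Of 45 genes of protein folding and stress of the endoplasmic reticulum, 14 rose and 0 fell, with a list median of 0.26. DESeq2 called 7 of them, and without vehicle 1 and vehicle 2 in turn 8 and 7 rose. Ern1, the sensor IRE1, was at 149.9, 145, 125 and 161 CPM in Avp nuclei, against 34.5, 39.5, 35.3 and 33.5 CPM in other neurons (log2 fold change 2.05 ± 0.13). Eif2ak3, the sensor PERK, was at 78.6, 70.8, 71.8 and 102 CPM, against 28.8, 27.9, 28.4 and 28.3 CPM (log2 fold change 1.53 ± 0.16). The IRE1 target Xbp1 (0.73 ± 0.17) and the chaperone Hspa5 (0.50 ± 0.10) rose by less. The calls of these 4 genes held in all 13 alternatives run.

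Immediate early genes are switched on in neurons within minutes of activity. Of 30 such genes, 14 rose and 3 fell in Avp nuclei, with a list median of 0.91, and over the left-out libraries between 12 and 14 rose. Fos was at 61.4, 301, 203 and 212 CPM, against 12.3, 19.8, 20.9 and 16 CPM in other neurons (log2 fold change 3.49 ± 0.14). Fosb was at 31.9, 80.6, 75.0 and 130.4 CPM, against 1.78, 3.12, 3.21 and 2.60 CPM (log2 fold change 4.90 ± 0.24). Npas4, which depends on calcium entry, was at 9.83, 86.5, 46.8 and 79.1 CPM, against 3.58, 6.00, 7.51 and 7.04 CPM (log2 fold change 3.25 ± 0.24).

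ImP 3 was the lowest Avp sum for each of these genes, yet it too lay above all other neurons. For Npas4 that value of ImP 3 rests on only 4 UMIs in 4 nuclei. Jun (3.21 ± 0.17), Junb (2.58 ± 0.13), Btg2 (2.07 ± 0.16), Egr1 (1.96 ± 0.23) and Nr4a1 (1.67 ± 0.25) rose as well. The Fos UMIs, 25, 153, 65 and 91 in number, were spread over 13, 54, 29 and 46 Avp nuclei, and the 3 nuclei with most of them held 11, 24, 17 and 16. In oligodendrocyte-gated nuclei 0, 6.45, 0 and 0% had a Fos UMI.

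**Figure D3:**
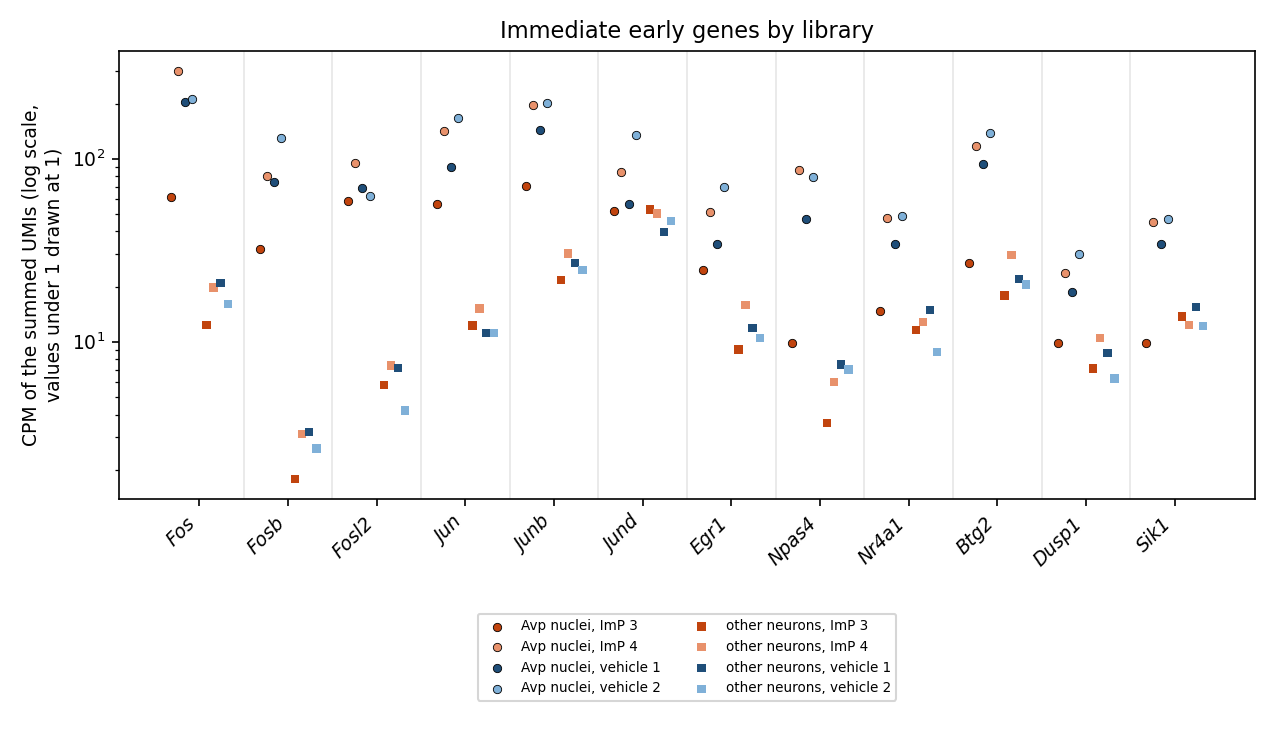
Summed levels of 12 immediate early genes in Avp nuclei (circles) and other neurons (squares) of each library, in CPM on a log scale. For Fos, Fosb, Fosl2, Jun, Junb, Egr1 and Npas4 every circle lies above every square, and for most genes ImP 3 is the lowest circle.

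Mitochondrially encoded transcripts were higher in Avp nuclei for 12 of 13 genes tested, with a list median of 0.63. For example mt-Co3, a subunit of cytochrome oxidase, was at 3931, 3591, 4622 and 4574 CPM, against 2602, 2426, 2302 and 2847 CPM (log2 fold change 0.73 ± 0.09). The median mitochondrial share was 1.70, 1.34, 1.76 and 1.80% in Avp nuclei, against 1.10, 0.978, 0.926 and 1.21% in other neurons, with the same ceiling of 5% in both. Of 83 nuclear genes of respiration 0 rose and 8 fell (0 by DESeq2, 2 without ImP 3 or ImP 4), and of 77 ribosomal protein genes 1 rose. Mitochondrial RNA in a nucleus comes from outside it, and its part in the difference was not tested.

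Of 22 genes that mark the suprachiasmatic nucleus, 1 rose and 6 fell, with 3 falls by DESeq2 and 3 without ImP 3, vehicle 1 or vehicle 2. Zfhx3, a large homeobox factor of those neurons, was at 128, 256, 144 and 161 CPM in Avp nuclei, against 687, 689, 694 and 738 CPM in other neurons (log2 fold change -2.0 ± 0.11), and Lhx1 had 0, 3, 0 and 1 UMIs. Six6, another marker of that nucleus, had no UMI in any Avp nucleus. Of 23 clock genes 0 rose and 7 fell (4 by DESeq2 and 4 without ImP 3), among them Npas2 (-1.63 ± 0.28), Tef (-1.20 ± 0.21) and Hlf (-1.39 ± 0.29). No gene of the 24 measured in the p38 and mTOR list passed.

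Of the genes named for the size of their fall, Npsr1, the neuropeptide S receptor, was at 2.46, 5.90, 0 and 0 CPM in Avp nuclei, against 40.3, 36.5, 46.9 and 45.9 CPM in other neurons (log2 fold change -4.10 ± 0.42). Arpp21, Grik3, Gpr149, Nfib, Chn2, Hs3st4, Sfta3-ps, Htr1f, Nrp1 and Dchs2 were also named by this rule, with log2 fold changes between -3.16 for Arpp21 and -2.85 for Dchs2. Each was lower in all 4 libraries.

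**Figure D4:**
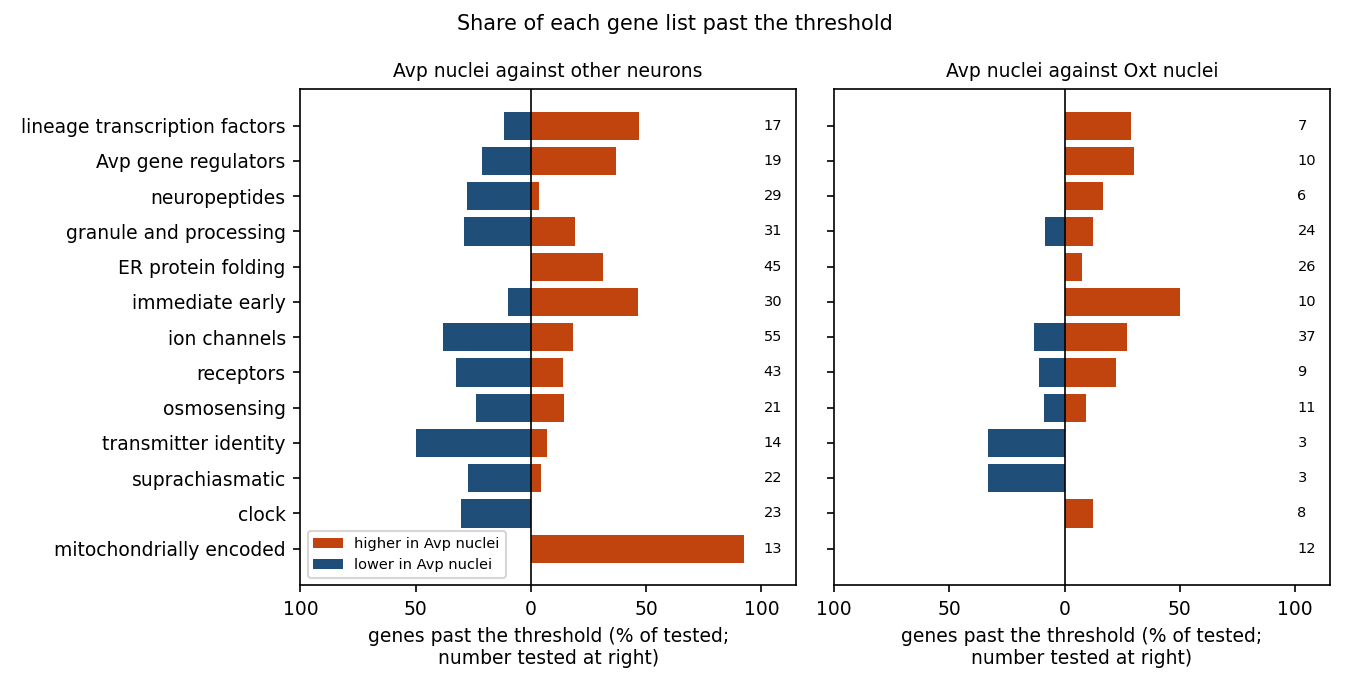
Share of each gene list that was higher (right, red) or lower (left, blue) in Avp nuclei, against other neurons in the left panel and against Oxt nuclei in the right, in percent of the genes tested, with that number at the right edge. The background over all genes was 5.73% higher and 8.59% lower on the left, and 5.41% and 6.22% on the right. On the right many list genes were too sparse to test, and a gene could be tested through its level in either class alone.

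The nearest relatives are the oxytocin neurons, chosen by the same rule with Avp and Oxt exchanged. There were 50, 47, 28 and 45 such Oxt nuclei, with a median depth of 4641, 4035, 6237 and 4655 UMIs. Oxt stood at 6545, 6510, 6679 and 6466 CPM in them, and Avp at 308, 372, 134 and 300 CPM. Ebf3, Maml3, Galntl6, Kcnip4 and Trpc5 were higher in Avp nuclei than in Oxt nuclei, and Galnt14, Nos1, Grin2a and Gpc5 were lower. The lineage factors Sim1, Pou3f2 and Otp and the convertase Pcsk1 did not pass. Of 5212 genes tested with edgeR, 282 were higher (5.41%) and 324 lower (6.22%) in Avp nuclei, which became 281 and 323 when Avp and Oxt, the genes of the rule, were not counted. DESeq2 called 294 genes, all of them among the 606 of edgeR.

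Sim1 was at 622, 578, 631 and 631 CPM in Avp nuclei, against 569, 471, 558 and 488 CPM in Oxt nuclei, and did not pass (log2 fold change 0.28 ± 0.11, adjusted p 0.13 by edgeR). Pou3f2 (0.43 ± 0.19), Otp (-0.15 ± 0.33) and Pcsk1 (0.16 ± 0.14) did not pass either. A miss does not show that the classes are equal. Caprin2 was at 427, 460.0, 497 and 354 CPM, against 419.5, 354, 296 and 206 CPM, a log2 fold change of 0.48 ± 0.14 that passed in 7 of 13 alternatives, and not without ImP 4, vehicle 1 or vehicle 2.

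Ebf3 was at 251, 316, 306 and 382 CPM in Avp nuclei, against 12.8, 8.97, 0 and 8.96 CPM in Oxt nuclei (log2 fold change 5.23 ± 0.29). Maml3, a coactivator of Notch signalling, was at 975, 1132, 1199 and 1311 CPM, against 77.1, 85.2, 100.4 and 103 CPM (log2 fold change 3.69 ± 0.14). Galntl6, of the family that starts O-linked sugar chains, was at 8769, 6141, 9329 and 7975 CPM, against 1344, 1113, 959.7 and 1007 CPM (log2 fold change 2.88 ± 0.11). For each of these genes the classes were apart by a wide gap in every library. Pla2r1 (5.56 ± 0.59), the receptor component Calcrl for calcitonin gene-related peptide and adrenomedullin (4.78 ± 0.52), Galnt9 (4.70 ± 0.53), the zinc-finger factors Bcl11b (3.76 ± 0.46) and Bcl11a (3.52 ± 0.35), the Notch-related ligand Dlk1 (2.93 ± 0.30), Angpt1 (2.76 ± 0.18), Gda (2.75 ± 0.36) and Fgf10 (2.70 ± 0.42) rose as well.

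Of the 55 genes of the channel list 37 had enough counts to be tested, of which 10 rose and 5 fell in this comparison (5 and 3 by DESeq2). Kcnip4 was at 20171, 17862, 22029.9 and 19533 CPM in Avp nuclei, against 6798, 7237, 9424 and 7075 CPM in Oxt nuclei (log2 fold change 1.42 ± 0.09). Trpc5 was at 639, 706, 665 and 875 CPM, against 137, 153, 112 and 193 CPM (log2 fold change 2.30 ± 0.14). Kcnip1, a relative of Kcnip4, fell instead, at 152, 206, 147 and 144 CPM in Avp nuclei, against 664, 543, 658 and 501 CPM in Oxt nuclei (log2 fold change -1.81 ± 0.14). Thus Kcnip4 and Kcnip1 were higher in opposite classes.

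Of 30 immediate early genes only 10 had enough counts to be tested, of which 5 rose and 0 fell. Their median was 0.64 against 0.00 over all genes. A gene could pass the count filter through its level in Avp nuclei alone, so these values do not describe the whole list. The 5 became 2 by DESeq2, 2 without ImP 4, 3 without vehicle 2 and 8 of 16 tested without ImP 3. Fos was at 61.4, 301, 203 and 212 CPM in Avp nuclei, against 38.5, 71.8, 145 and 129.9 CPM in Oxt nuclei (log2 fold change 1.06 ± 0.21), and it was higher in Avp nuclei within each library. Without ImP 4 the Fos call was lost (adjusted p 0.057 by edgeR). Jun held there, with a log2 fold change of 1.46 ± 0.25 over all libraries. Pcsk2 rose (1.13 ± 0.13), while Pam fell (-0.59 ± 0.11).

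Among the genes higher in Oxt nuclei, Galnt14, a further O-glycosylation enzyme, was at 14.7, 9.83, 6.25 and 2.33 CPM in Avp nuclei, against 209.8, 215, 268 and 259.7 CPM in Oxt nuclei (log2 fold change -4.71 ± 0.28). Nos1, the neuronal nitric oxide synthase, was at 9.83, 7.86, 6.25 and 21.0 CPM, against 171, 103, 106 and 179 CPM (log2 fold change -3.55 ± 0.28). Grin2a, an NMDA receptor subunit, was at 76.2, 100.2, 87.4 and 88.5 CPM, against 985, 745, 753 and 945 CPM (log2 fold change -3.23 ± 0.14). No library of one class reached the other for these genes. The glypicans Gpc5 (-3.34 ± 0.15) and Gpc6 (-2.36 ± 0.15), Dnah9 (-3.12 ± 0.30), the secreted Reln (-3.02 ± 0.36), the muscarinic receptor Chrm2 (-2.30 ± 0.16), Cdh6, Gsg1l, Bmper and Tafa1 completed the named falls, and Prlr fell too (-2.06 ± 0.29).

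Within the Avp nuclei, UMIs of transmitter markers were few. More UMIs of Gad1, Gad2 and Slc32a1 together than of Slc17a6 were found in 63 nuclei (17.8%, and 19, 23, 12 and 9 by library), and the reverse in 106 (30.0%, and 28, 24, 20 and 34). The remaining 184 (52.1%) had none or equal numbers. Of the 63 nuclei 45 held a single marker UMI, and of the 106 so did 68. The side with more GABA marker UMIs took 21.3, 19.5, 23.1 and 9.57% of Avp nuclei, against 14.7, 16.1, 13.7 and 10.8% of oligodendrocyte-gated nuclei, whose median depth was less than that of Avp nuclei, and in vehicle 2 it was at this background. The Slc17a6 side took 31.5, 20.3, 38.5 and 36.2%, against 6.32, 6.45, 5.34 and 14.5%. The names of the sides thus stand for UMIs seen and not for types of Avp neuron, and the part of free RNA in the split was not tested. The nuclei with GABA markers had more Nrxn3, Nnat and Zfhx3 and less Sim1, Gabra2 and Kcnip4 than those with Slc17a6. Of 2404 genes tested with edgeR, 16 were higher (0.666%) and 8 lower (0.333%), including 1 splitting gene in each direction. This test rests on few nuclei, and its 24 calls became 5 by DESeq2, 5 without vehicle 1, 8 without ImP 4, 14 without vehicle 2 and 54 without ImP 3.

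Nrxn3, a presynaptic adhesion protein, was at 2519.8, 2002, 2010.4 and 2987 CPM in the GABA-marked nuclei, against 216, 643, 101.4 and 139.7 CPM in those with more Slc17a6 (log2 fold change 3.30 ± 0.31, adjusted p 2.8e-06 by edgeR). Zfhx3 was at 208, 419, 473 and 597 CPM, against 142, 199, 36.2 and 128 CPM (log2 fold change 1.71 ± 0.33). Sim1 was at 339.7, 327, 355 and 299 CPM, against 515, 735, 674 and 658 CPM (log2 fold change -0.92 ± 0.19). Each of these 3 genes differed in the same direction in all 4 libraries. The call of Nrxn3 held in 11 of 11 alternatives that tested it, that of Zfhx3 in 7 of 11 and that of Sim1 in 4 of 12. The Zfhx3 call was lost without vehicle 1 and without vehicle 2, and the Sim1 call without ImP 4 as well. The imprinted gene Nnat (1.78 ± 0.27), Hs6st2 (2.13 ± 0.37) and Pcdh11x (1.95 ± 0.36) were also higher, and the GABA receptor subunit Gabra2 (-0.74 ± 0.18) and Kcnip4 (-0.53 ± 0.11) lower. Also named were Aff3, Ptprz1, Gpc6, Edil3, Nav3, Pcdh9 and 1 of the gene IDs with the symbol Nrg1 on the higher side and Zfp804b, Cadm2 and Pde4b on the lower. Avp itself, as a description, was at 6521, 7526, 7110.4 and 7087 CPM in GABA-marked nuclei and at 7062, 7660.1, 8159 and 9579 CPM in the others.

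ImP was then compared with vehicle within the Avp nuclei, the question the study's design poses. Of all genes 1 passed of 7048 tested (0.0142%), Trpm3, a steroid- and heat-sensitive cation channel, which was higher in ImP. It was at 209 and 181 CPM in ImP, against 62.5 and 25.6 CPM in vehicle (log2 fold change 2.19 ± 0.31, adjusted p 0.012 by edgeR). The groups did not overlap. At an unadjusted p under 0.05 there were 439 genes, of which 272 were higher and 167 lower, and DESeq2 also called 1 gene, the same one. The labels do not say that libraries are separate animals, so these p-values rest on spread between libraries and may not cover that between mice. With 2 libraries per group, edgeR takes much of that spread from other genes. The p-value of Trpm3 thus does not measure its own spread alone. Leaving out ImP 3, ImP 4, vehicle 1 or vehicle 2 gave 14, 13, 37 and 46 calls, in fits with 1 library on a side. Without the mixed nuclei 6 genes passed, and the log2 fold change of Trpm3 was 1.96.

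The Trpm3 UMIs were few and uneven. They numbered 85 and 92 in ImP, against 20 and 11 in vehicle, in 16 and 22 nuclei against 8 and 7. The 3 nuclei with most of them held 46 and 27 UMIs in ImP, against 12 and 7 in vehicle. After thinning each nucleus to 2000 UMIs, which kept 82 and 108 Avp nuclei of ImP and 51 and 89 of vehicle, 14.6 and 14.8% had a Trpm3 UMI in ImP, against 3.92 and 3.37% in vehicle. Before thinning it was 18.0 and 18.6% in ImP, against 15.4 and 7.45% in vehicle, and in oligodendrocyte-gated nuclei 8.42 and 19.4% in ImP, against 6.87 and 10.8% in vehicle.

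Other neurons carried more Trpm3 than the Avp nuclei did. In other neurons it was at 791 and 857 CPM in ImP, against 691 and 727 CPM in vehicle. Oligodendrocyte-gated nuclei held 113 and 365 CPM in ImP, against 157 and 234 CPM in vehicle, so Avp nuclei lay below this background in ImP 4 and in both vehicle libraries, and above it in ImP 3. Among Avp nuclei with a Sim1 UMI it was at 171 and 134 CPM in ImP, against 53.3 and 26.7 CPM in vehicle. In Avp nuclei without one it was at 395 and 424 CPM in ImP, on 27 and 35 UMIs, against 129 and 18.2 CPM in vehicle, on 5 and 1. In the GABA-marked Avp nuclei the call was lost (log2 fold change 1.44, adjusted p 0.70 by edgeR), and in those with more Slc17a6 or with Avp at 10000 CPM or more Trpm3 was too sparse to test. Trpm3 passed in 13 of 14 alternatives that tested it. Its log2 fold change was 2.90 without vehicle 1 and 1.59 without vehicle 2.

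The other genes named for the smallest p in each direction did not pass with these settings. Nrxn3 was at 879.6 and 938 CPM in ImP, against 556 and 542 CPM in vehicle (log2 fold change 0.71 ± 0.15), and it passed in 7 of 16 alternatives, among them those without vehicle 1 or vehicle 2. Epha3, an ephrin receptor, was at 49.1 and 25.6 CPM in ImP, against 3.12 and 2.33 CPM in vehicle, on 20 and 13 UMIs against 1 and 1. Nrxn3, Epha3, Prickle2 (1.20 ± 0.25), Clstn2 (1.21 ± 0.26) and Rftn1 (2.60 ± 0.56) had an adjusted p of 0.26 by edgeR. In the lower direction Mtor, the growth kinase, was at 12.3 and 37.3 CPM in ImP, against 81.2 and 67.5 CPM in vehicle (log2 fold change -1.51 ± 0.39, adjusted p 0.42 by edgeR). It passed in 5 of 14 alternatives that tested it. Lyst (-0.97 ± 0.25), Strn (-1.02 ± 0.27), Ccdc39 (-1.17 ± 0.34), Vps50 (-1.26 ± 0.37) and Limk2 (-1.26 ± 0.37) had adjusted p-values of 0.42 to 0.49 by edgeR.

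**Figure D5:**
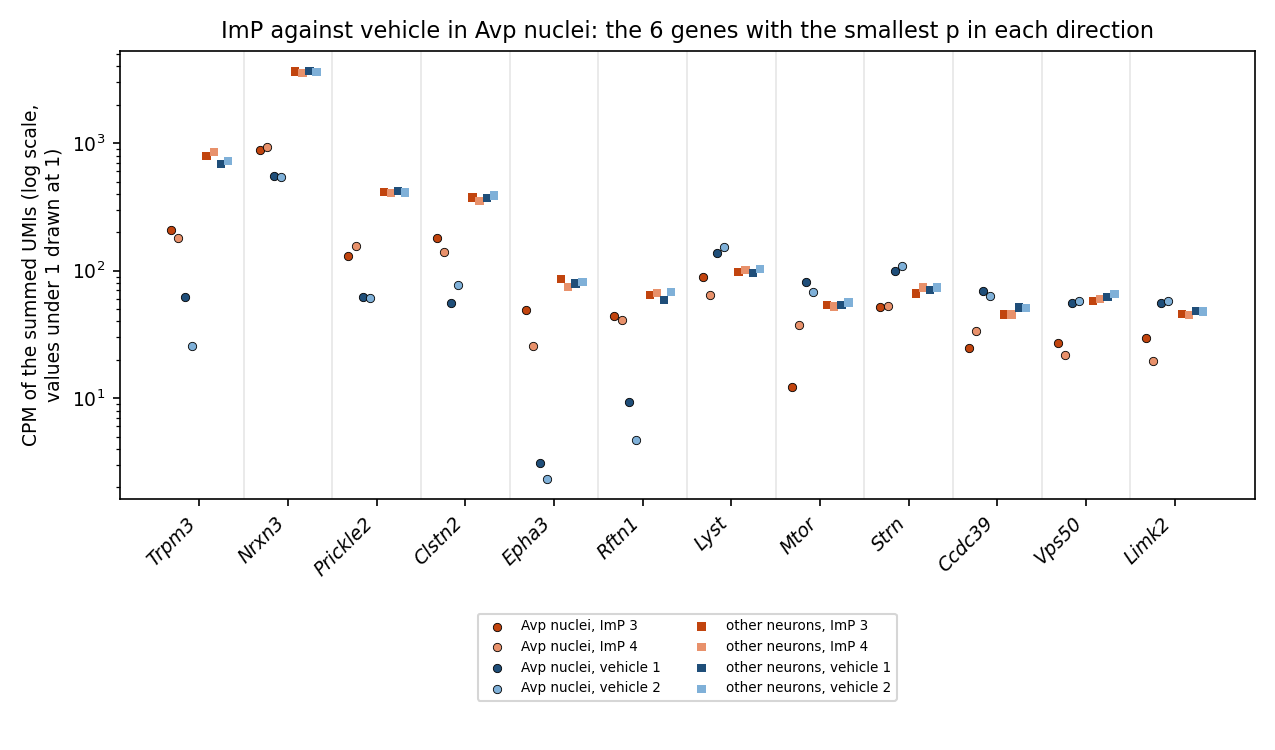
Summed levels in Avp nuclei (circles) and other neurons (squares) of the 12 genes with the smallest p between ImP (red and orange) and vehicle (dark and light blue), 6 in each direction, in CPM on a log scale. Trpm3 is the only one that passed. In the other neurons the libraries lie close together for all 12 genes. The genes were picked by their p in Avp nuclei, and the sums of other neurons are far deeper. The figure therefore cannot tell whether a difference is particular to Avp nuclei.

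Of genes higher in Avp nuclei than in other neurons, Sim1, Caprin2, Pcsk1 and Fos did not pass between ImP and vehicle. Sim1 was at 622 and 578 CPM in ImP, against 631 and 631 CPM in vehicle (log2 fold change -0.10 ± 0.15). Caprin2 was at 427 and 460.0 CPM in ImP, against 497 and 354 CPM in vehicle (0.05 ± 0.18), and Pcsk1 at 199 and 352 CPM, against 334 and 249 CPM (-0.07 ± 0.23). Fos was at 61.4 and 301 CPM in ImP, against 203 and 212 CPM in vehicle, so the ImP libraries lay on either side of both vehicle libraries. Without ImP 4 it was lower in ImP (log2 fold change -1.79, adjusted p 0.00038 by edgeR), and without ImP 3 it was at 0.51. Sgk1, a kinase induced by glucocorticoids, was at 36.9 and 39.3 CPM in ImP, against 9.37 and 6.98 CPM in vehicle, on 15 and 20 UMIs against 3 and 3 (log2 fold change 2.19 ± 0.55, adjusted p 0.42 by edgeR).

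Trpm3 is in none of the gene lists, and 0 genes of the lists passed between ImP and vehicle, so lists are given by their sides. Over all 7048 genes, 19.2% were higher in each ImP library than in each vehicle library, and 15.8% lower. Of 12 mitochondrially encoded genes 12 were lower in both ImP libraries, with a list median of -0.29 against -0.01 over all genes, as for mt-Co3 at 3931 and 3591 CPM in ImP, against 4622 and 4574 CPM in vehicle. Of 67 nuclear genes of respiration 27 were higher in both ImP libraries (median 0.36), and of 76 ribosomal protein genes 31 were (median 0.30). Of 35 neuropeptide genes other than Avp and Oxt only 11 had enough counts to be tested, and 8 of these were higher (median 0.80). Among the 8 was Pomc, which is also on the pituitary list, at 41.8 and 181 CPM in ImP, against 9.37 and 27.9 CPM in vehicle. Beside them, Mbp, Apoe, Cst3 and Ptgds, abundant transcripts of other cells, were each higher in both ImP libraries, such as Cst3 at 452 and 544 CPM in ImP, against 206 and 354 CPM in vehicle. Of the 791 genes of this comparison that were called lower in Avp nuclei than in other neurons, 38.6% were higher in both ImP libraries and 6.57% lower, with a median log2 ratio of 0.20. Of the 842 called higher in Avp nuclei, 7.36% were higher in both ImP libraries and 26.6% lower, with a median of -0.14. Those calls rest on the same Avp sums, and the part of free RNA in these sides was not tested. The sides are also not shown to be particular to Avp nuclei. In the interaction test given next, 0 genes of these 4 lists passed. The list medians there were 0.05 for 31 neuropeptide, 0.01 for 83 nuclear respiration, -0.12 for 78 ribosomal protein and -0.23 for 13 mitochondrially encoded genes. Over all genes the median was 0.04.

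Whether ImP shifted Avp nuclei differently than other neurons was tested as an interaction over the same sums. Of 19515 genes, 19 had a higher ImP-over-vehicle ratio in Avp nuclei (0.0974%) and 1, Avp itself, a lower one (0.00512%). As a rule gene Avp is not counted, and it was at 258 and 390 CPM in other neurons of ImP, against 138 and 218 CPM in those of vehicle. For Trpm3 the difference of the log2 ratios was 2.01 ± 0.29 with an adjusted p of 6.1e-08 by edgeR. Epha3 (3.78 ± 0.72) and the adhesion protein Flrt2 (3.0 ± 0.59) had larger differences on far fewer UMIs. On the lower side Mtor (-1.43 ± 0.36), Lyst (-0.94 ± 0.25), Strn (-0.95 ± 0.28), H3f3b, Timm23 and Tuba1a came nearest and did not pass. Over 12 alternatives Mtor passed in 4, H3f3b in 3, Tuba1a in 1, and Lyst, Strn and Timm23 in 0. All 19 genes were lower in Avp nuclei than in other neurons in all 4 libraries. The comparisons share the Avp sums. The interaction fit also shares its estimate of spread between unlike sums, 320201 to 508747 UMIs in Avp nuclei and 43303140 to 45826246 in other neurons. Its p-values thus do not measure the spread between the Avp sums alone. DESeq2 called 1 gene in the interaction in place of 20, and without ImP 3, ImP 4, vehicle 1 or vehicle 2 edgeR called 8, 18, 34 and 7. Trpm3 passed in 10 of 12 alternatives there, and not without vehicle 2 (adjusted p 0.086).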

How the data were processed

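Nuclei of mouse hypothalamus were profiled with 10x Genomics 3′ chemistry in 4 libraries, 2 per group. The deposited matrices hold raw UMI counts for each gene in each barcode, per the file headers and values. For the steps before that, the submitters' processing notes name the build GRCm39, Cell Ranger 8.0.1 and Seurat 5.0.0 without their order. The barcodes were already filtered when deposited.

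Counts were summed per library and class of nuclei. Sums were tested with edgeR 4.0.16 (TMM scaling, filterByExpr with a minimum count of 10, quasi-likelihood test, Benjamini-Hochberg threshold 0.05). In every comparison its standard errors and p-values use a spread moderated over genes, which is not a gene's own spread between libraries. Comparisons within libraries had library as a block, and the ImP comparison had none. DESeq2 1.42.0, median-ratio (RLE) scaling, no filter, each left-out library, stricter limits of 24 Avp UMIs or 10000 CPM, nuclei of at least 5000 UMIs, thinning to 2000 UMIs, the library-name block, Avp and Oxt left out, and nuclei without 5 or more UMIs of any 1 list of other cell types (mixed nuclei, with and without the pituitary list, the latter added after seeing the data) were the alternatives. R 4.3.3, limma 3.58.1, Python 3.11.15, numpy 2.4.6, pandas 2.3.3 and scipy 1.17.1 were used. The tests were also run on simulated counts with the same spread set for every gene. Uneven nuclei and free RNA were not simulated, so that check does not cover them.

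Genes were named by rule: the 12 with the largest log2 change per direction among those past the threshold, at a mean of 20 CPM or more and the same direction in every library or pair. Where fewer than 5 passed, the 6 with the smallest p were taken. Genes of the lists were added, and predicted genes were left out. Some genes that the rule names are not reported here. The nuclei and lists were chosen with earlier results of these data known. No doublet caller was run. The 26 symbols with several gene IDs were kept apart. The labels do not state that libraries are separate mice, so p-values may reflect technical spread only. Binomial intervals cover counting error only.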

Additional observations from a re-analysis of the deposited data

Results flagged for a closer look

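A test of the difference itself singled out the following named genes, whose ImP-over-vehicle ratio was higher in Avp nuclei than in other neurons. In each, Avp nuclei were lower than other neurons in all 4 libraries, and adjusted p-values by edgeR lay between 6.1e-08 and 0.036. These p-values rest on a spread estimated also over the far deeper sums of other neurons. For Trpm3 the difference of the log2 ratios was 2.01, with levels in the report. Epha3 differed by 3.78, on 20 and 13 UMIs in Avp nuclei of ImP, against 1 and 1 UMI in those of vehicle. Its 20 UMIs in ImP 3 were in 6 nuclei, of which 1 held 9. Without the highest nucleus of each library Epha3 was at 27.0 and 19.7 CPM in ImP, against 0 and 0 CPM in vehicle. Flrt2 differed by 3.0, at 29.5 and 51.1 CPM in ImP, against 6.25 and 4.66 CPM in vehicle. Of its 26 UMIs in ImP 4, 9 were in 1 nucleus. Rftn1 differed by 2.65, at 44.2 and 41.3 CPM in ImP, against 9.37 and 4.66 CPM in vehicle.

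Among channels and receptors, Kcnh5 differed by 1.99, at 61.4 and 41.3 CPM in Avp nuclei of ImP, against 15.6 and 11.6 CPM in those of vehicle. Ryr3 differed by 1.72, at 133 and 49.1 CPM in ImP, against 31.2 and 25.6 CPM in vehicle. ImP 3 was the higher library for both of these genes.

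Rgs6 differed by 1.87, at 66.3 and 37.3 CPM in Avp nuclei of ImP, against 21.9 and 6.98 CPM in those of vehicle. Of its 19 UMIs in ImP 4, 15 were in 1 nucleus, and without the highest nucleus of each library it was at 51.6 and 7.86 CPM in ImP, against 12.5 and 2.33 CPM in vehicle, so the groups then overlapped. Neto1 differed by 1.70, at 41.8 and 86.5 CPM in ImP, against 21.9 and 21.0 CPM in vehicle. Cdh8 differed by 1.39, at 130.2 and 119.9 CPM in ImP, against 62.5 and 41.9 CPM in vehicle. Clstn2 differed by 1.31 and Prickle2 by 1.25, and neither they nor any of the other genes except Trpm3 passed in Avp nuclei alone. Of 12 alternatives of the interaction, Kcnh5 and Rgs6 passed in 5, the fewest of these genes, and Trpm3 in 10, the most.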

How the results depend on the processing

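The ImP comparison in Avp nuclei gave 1 call, 31 without a filter on low counts, 2 at 24 or more Avp UMIs, 6 without mixed nuclei, 5 in nuclei with more Slc17a6 and 13 to 46 with a library left out. Library names share a number between ImP 3 and vehicle 1 and between ImP 4 and vehicle 2. Deviations of these pairs from their group means correlated at 0.0646 over 7048 genes. With 2 libraries per group the opposite pairing can only give the same value with the other sign. This check therefore cannot decide whether the pairs share more than a number. The replicate block gave 35 calls. Avp against other neurons gave 2652 calls, 1417 at 10000 CPM or more of Avp and 1671 at 5000 or more UMIs. Against Oxt nuclei there were 606, and 294 by DESeq2, 117 at 10000 CPM and 324 at 5000 UMIs. The split by transmitter markers gave 24, and 5 by DESeq2, 39 without the filter, 4 at 24 UMIs, 0 at 10000 CPM, 11 without mixed nuclei, 10 where the pituitary list was not used (added after seeing the data) and 5 to 54 with a library left out. The interaction gave 20, and 1 by DESeq2, 1 at 10000 CPM, 10 without mixed nuclei and 7 to 34 with a library left out. Avp at 10000 CPM or more left 119 of 353 nuclei.

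Some genes changed sign under an alternative, and the cause was not tested. With the settings of the report Nnat, Pcdh9 and Neto1 passed and the others did not, of which in the ImP comparison Nrxn3 passed in 7 of 16 alternatives and Fos in 1 of 16, and in the interaction Hcrtr2 in 2 of 12. In the ImP comparison, with a library left out, the log2 fold change lay between -1.79 and 0.51 for Fos, -0.57 and 0.26 for Pcsk1, and -0.20 and 0.32 for Caprin2. Nuclei with more Slc17a6 gave 0.20 for Fos, 0.026 for Pcsk1 and -0.088 for Caprin2. GABA-marked nuclei gave 0.066 for Pcsk1, -0.027 for Caprin2, -0.14 for Nrxn3 and 0.22 for mt-Co3. Caprin2 was at -0.012 without mixed nuclei. At 10000 CPM Pcsk1 was at 0.41 and Sim1 at 0.022, and after thinning Sim1 was at 0.13. Against other neurons, Pcsk2 lay between -0.032 and 0.13 with a library left out, and was at -0.32 at 10000 CPM, -0.045 without mixed nuclei, -0.029 with the pituitary list not used and -0.065 at 5000 UMIs. Slc17a6 lay between -0.17 and 0.15 with a library left out, and was at -0.058 at 10000 CPM and -0.14 at 5000 UMIs. Against Oxt nuclei, Otp lay between -0.58 and 0.41 with a library left out and was at 0.031 at 24 UMIs. In the transmitter split, Nnat was at -0.15 at 24 UMIs and Pcdh9 at -0.19 at 10000 CPM. In the interaction, with a library left out, Fos lay between -1.20 and 0.40 and Hcrtr2 between -0.10 and 3.63, while at 10000 CPM Hcrtr2 was at -0.13 and Neto1 at -0.26.

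For single genes that passed against other neurons, 1142 values over the alternatives kept the call and 40 lost it, and against Oxt nuclei 487 kept and 31 lost it. In the transmitter split 103 kept and 97 lost it, and in the interaction 84 kept and 59 lost it, while 10 values of genes that had not passed there did so. In the ImP comparison 43 such values passed. The 52 to 118 Avp nuclei of a library limit what can be seen of genes with few UMIs, such as Glp1r, Creb3l1 and Epha3.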
